A study of Mus musculus with 8 samples.

Results

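Aqp3 encodes aquaporin 3, a membrane channel that carries water and glycerol. It was chosen by its row in both deposited tables of normalised read counts, with its values there already known, and is 1 of the 16902 genes listed. Its levels and fold changes are therefore given as a description with standard errors (SE) and no p-value. RNA was taken from epidermis that dispase had loosened from the back skin of CD1 mice, in 8 libraries that formed 4 groups of 2, each with 1 female and 1 male. The groups given imiquimod (IMQ), which activates Toll-like receptors and inflames mouse skin in a psoriasis-like way, were mice labelled Ovol1 -/- and Ovol1 +/+ controls. The untreated groups were mice labelled Ovol1 -/- and Ovol1 +/- controls. The control genotype thus differed between IMQ and untreated epidermis. The labels give no age, IMQ dose or schedule, and say no more of how Ovol1 was altered. The -/- mice are called labelled knockouts, because the targeted gene Ovol1, a zinc-finger transcription factor of epithelia, stood higher in them: 13457 and 13077 normalised counts (female, male) in IMQ labelled knockouts, against 7635 and 9556 in +/+ controls. Untreated, Ovol1 stood at 27433 and 26601 normalised counts in labelled knockouts and at 16629 and 14582 in +/- controls. Values are per gene and not per exon, so they do not check the genotype labels. With 1 female and 1 male a group, the p-values below rest on these particular libraries. They set a difference against the spread within groups, pooled over the 4 groups and moderated across genes. In fits without sex as a block, sex is part of that spread.

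Aquaporin 3 lies in the membranes of basal and lower suprabasal keratinocytes. It belongs to the aquaglyceroporins, which pass glycerol and hydrogen peroxide as well as water. Mice without it have dry, inelastic skin with little glycerol in the outer layers, and the channel has been linked to keratinocyte proliferation and to psoriasis-like inflammation. Glycerol that enters a keratinocyte can be held as a moisturiser or phosphorylated by glycerol kinase and built into glycerolipids.

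In mm10 (GRCm38) with the GENCODE vM21 annotation, Aqp3 lies on the minus strand of chromosome 4 from 41092722 to 41098183. The transcript has 6 exons and 1765 bases, of which the first 74, in exon 1, are 5′ untranslated and the last 815, in exon 6, are 3′ untranslated. The 250 bases before its start, chr4:41098184-41098433 on the minus strand of GRCm38.p6 (RefSeq), are shown as those before the annotated start of Aqp3. Values are per gene, so they do not show from which start the RNA was made. The same stretch of Gk, the glycerol kinase gene, chrX:85776820-85777069 on the minus strand, is shown because Gk was the member of the glycerol list with the largest fold change under IMQ. Both read 5′ to 3′, and capitals mark the motifs found.
Aqp3: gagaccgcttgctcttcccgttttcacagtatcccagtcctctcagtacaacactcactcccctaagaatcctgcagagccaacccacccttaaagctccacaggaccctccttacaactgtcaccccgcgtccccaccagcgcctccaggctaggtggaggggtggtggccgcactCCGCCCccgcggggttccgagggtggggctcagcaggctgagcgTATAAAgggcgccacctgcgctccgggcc
Gk: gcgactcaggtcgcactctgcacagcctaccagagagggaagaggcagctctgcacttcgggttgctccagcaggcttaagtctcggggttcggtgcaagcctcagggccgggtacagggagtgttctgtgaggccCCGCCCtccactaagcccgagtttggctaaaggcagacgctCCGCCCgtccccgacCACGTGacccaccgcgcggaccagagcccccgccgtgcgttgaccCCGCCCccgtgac
The window of Aqp3 holds a TATA box, TATAAA, with 23 bases between its last base and the start, and a GC box, GGGCGG, read on the other strand as CCGCCC. The window of Gk holds 3 GC boxes and 1 E-box, CACGTG, the sequence that CLOCK and its partners bind. Letters were searched on both strands in the same window of 32851 RefSeq promoters. Of these, 12.4% held TATAAA, 32.7% GGGCGG and 6.02% CACGTG. The core bound by Ovol1, CCGTTA, was in neither window and in 2.18% of promoters. TGANTCA (AP-1, in 6.75%) and TTCNNNGAA (STAT, in 7.02%) were in neither window. The GC box of Aqp3 and the TATA box do not overlap.

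Aqp3 RNA was abundant in every library, and its highest levels were in IMQ-treated labelled knockouts. Under IMQ the normalised count was 179407 in the female and 127864 in the male labelled knockout, against 34200 in the female and 50547 in the male +/+ control. The lower of the labelled knockouts thus still stood well above the higher control, and the sexes were in opposite order in the genotypes. The means were 153635 ± 36447 in labelled knockouts and 42374 ± 11560 in controls (SD, n = 2 each), and the log2 fold change was 1.87 (SE 0.23), or 3.64-fold. In untreated epidermis the normalised count was 21154 in the female and 22017 in the male labelled knockout, against 17863 and 17788 in the female and male +/- control. Both untreated labelled knockouts lay above both controls, which differed from each other by little. The group means were 21585 ± 610 in labelled knockouts and 17825 ± 53.1 in controls (SD, n = 2 each), and the log2 fold change was 0.28 (SE 0.23), or 1.21-fold. The SE comes from limma's fit to log2 of the normalised count plus 1 over all 8 libraries, which share 1 estimate of the spread. With each table fitted alone, the SE was 0.27 under IMQ and 0.12 untreated. The shared SE is thus smaller than the IMQ libraries alone give, and larger than the untreated ones alone give. By sex, the IMQ ratio of labelled knockout to control was 5.25 between the females and 2.53 between the males, or 2.39 and 1.34 on the log2 scale, and untreated the log2 ratio was 0.24 and 0.31. The genotype difference was larger under IMQ by 1.59 on the log2 scale (SE 0.32), in a comparison whose controls were +/+ under IMQ and +/- without it. Ordered by log2 fold change from the highest, Aqp3 was number 92 of the 14614 genes tested under IMQ and number 2143 untreated, where the median gene was at -0.01 and -0.00.

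The levels with and without IMQ were set side by side as CPM (recovered reads scaled to a common library total), because each deposited table was scaled by itself, and were not tested. The labelled knockouts had 5810 and 4195 CPM (female, male) under IMQ and 559 and 579 CPM untreated. The controls had 1121 and 1641 CPM under IMQ and 478 and 478 CPM untreated. The 4 groups therefore ran, from the lowest mean, +/- untreated (478 ± 0.0204 CPM), -/- untreated (569 ± 14.2), +/+ IMQ (1381 ± 367) and -/- IMQ (5002 ± 1142; SD, n = 2 each), and no neighbouring groups in that order overlapped. In log2(CPM + 0.5), IMQ epidermis stood 3.12 above untreated epidermis in labelled knockouts, or 8.67-fold, and 1.50 above it in controls, or 2.83-fold. The median tested gene stood at -0.01 and 0.02 on the same scale. By sex the IMQ to untreated ratio was 10.4 and 7.24 (female, male) in labelled knockouts and 2.34 and 3.43 in controls, where the genotype changes with the treatment. Aqp3 took 0.576% and 0.395% of all reads in the IMQ labelled knockouts, against 0.113% and 0.155% in the IMQ controls. Untreated, it took 0.0580% and 0.0612% of reads in labelled knockouts and 0.0480% and 0.0492% in controls. The share was thus highest in both IMQ labelled knockouts, next in the IMQ controls, and close together in the untreated libraries. The reads behind these values were 180475 and 134459 in IMQ labelled knockouts, 37272 and 44271 in IMQ controls, and 16568 to 21368 in the untreated libraries. Per length, as TPM (read density over exon length, scaled to a common total), Aqp3 was the number 9 and number 17 gene of 16723 with a known length in the IMQ labelled knockouts. It was number 77 and number 46 in the IMQ controls. Untreated it was number 138 and number 130 in labelled knockouts and number 171 and number 172 in controls.

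**Figure D1:**
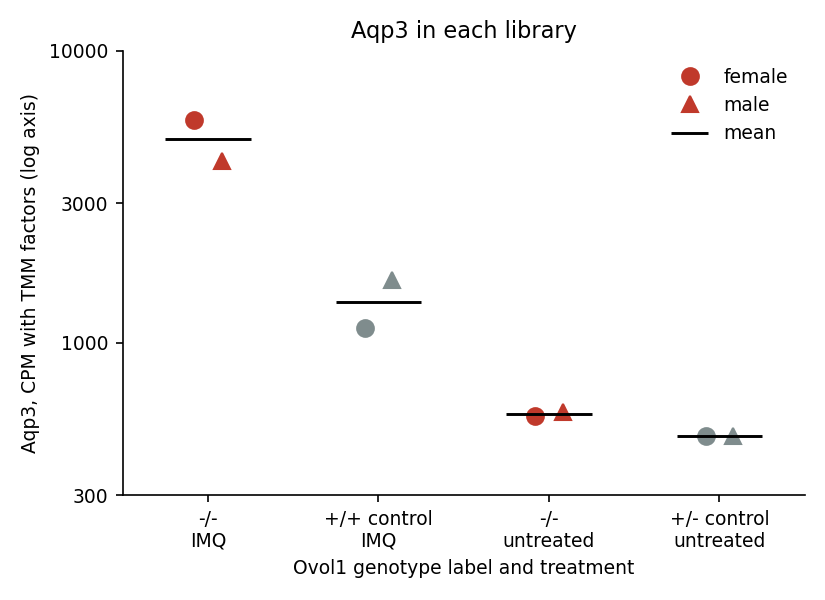
Aqp3 level in CPM in each library on a log axis, with labelled Ovol1 -/- mice left of their controls in IMQ and untreated epidermis. Circles are females, triangles males and bars group means; the IMQ labelled knockouts, at 5810 and 4195 CPM, lie above all other libraries.

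The libraries held 28.6 to 43.1 M reads and 16249 to 16603 genes with a read. All 8 basal and 8 suprabasal keratinocyte markers were read in every library. Summed basal marker RNA under IMQ was 15419 and 18267 CPM (female, male) in labelled knockouts and 20422 and 20322 CPM in controls, and summed suprabasal marker RNA was 12780 and 19063 CPM in labelled knockouts and 16946 and 24465 CPM in controls. Untreated, the basal sum was 19174 and 16813 CPM in labelled knockouts and 22180 and 19165 CPM in controls. The untreated suprabasal sum was 19712 and 21862 CPM in labelled knockouts and 20310 and 22955 CPM in controls. Both keratinocyte sums were thus lower in the labelled knockout of each sex, with and without IMQ. Log2 fold changes were positive for 2 of 8 basal and 1 of 8 suprabasal markers under IMQ, and for 0 and 4 untreated. Summed RNA of the 6 dermal fibroblast markers was 61.5 and 1640 CPM in IMQ labelled knockouts and 228 and 2564 CPM in IMQ controls, and untreated it was 49.4 and 493 CPM in labelled knockouts and 107 and 458 CPM in controls. Fibroblast RNA thus differed more by sex than by genotype. The 6 genes listed as leukocyte markers, S100a8 among them, summed to 701 and 592 CPM in IMQ labelled knockouts and to 684 and 378 CPM in IMQ controls. Untreated they summed to 511 and 337 CPM in labelled knockouts and to 539 and 314 CPM in controls. The part of these cell types in the Aqp3 difference was not tested. In whole epidermis more cells that make an RNA and more RNA per cell cannot be told apart.

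None of the 4 other aquaporins tested had a positive log2 fold change under IMQ in the fit over all libraries. The sign turned in Aqp11 with quantile scaling (0.11) and without the male labelled knockout (0.28) or the male control (0.25), and in Aqp1 without the female control (0.10). Of 12 mouse aquaporins listed, 6 were in the tables, and 4 besides Aqp3 had a mean normalised count of at least 10 over the 4 libraries of the untreated or the IMQ table and were tested. Under IMQ 0 of the 4 had a positive log2 fold change and their median was -0.65, and untreated 2 of 4 were positive. limma called 0 of them at an adjusted p under 0.05 in either comparison, where 0.157% of all tested genes were called higher and 0.281% lower under IMQ, and 0% either way untreated. At an unadjusted p under 0.05 the 1 member was Aqp9, lower under IMQ, where 11.9% of all tested genes were lower and 10% higher. Aqp9, another aquaglyceroporin, was the most abundant of these 4. Its normalised count under IMQ was 845 and 1124 (female, male) in labelled knockouts and 1595 and 2012 in controls, so the groups did not overlap, as for 26.4% of tested genes in that direction. The log2 fold change was -0.88 (SE 0.29, limma adjusted p = 0.153), and with sex as a block in the fit the limma adjusted p was 0.0328. With that block limma called 1.86% of tested genes lower and 0.588% higher under IMQ, and 0.0137% lower and 0.0411% higher untreated. Untreated, Aqp9 stood at 1257 and 1709 in labelled knockouts and 1471 and 2523 in controls, which overlap. Aqp5, the water channel of glands, had 85.5 and 103 normalised counts in IMQ labelled knockouts and 123 and 128 in IMQ controls (log2 fold change -0.42, SE 0.30, limma adjusted p = 0.449). Aqp1, the water channel of red cells and endothelium, had 52.7 and 58.0 in IMQ labelled knockouts and 534 and 51.4 in IMQ controls. Its log2 fold change of -1.57 (SE 0.92) rests on the female control, without which it was 0.10. In that library summed endothelial and erythroid markers stood at 21.4 CPM and skeletal muscle markers at 84.1 CPM, against 3.61 to 6.45 CPM and 2.93 to 14.3 CPM in the other IMQ libraries. Their part in the Aqp1 value was not tested. Aqp11, an intracellular aquaporin, had 7 to 15 reads a library and a log2 fold change of -0.10 (SE 0.50) under IMQ. Aqp7, the glycerol channel of adipocytes, had 1 to 18 reads and was below the minimum; its normalised count was 7.95 and 15.2 in IMQ labelled knockouts and 5.51 and 1.14 in IMQ controls.

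Per length, Aqp3 made up nearly all aquaporin RNA in each library. Its level was 9716 and 6462 TPM in IMQ labelled knockouts and 1918 and 2558 TPM in IMQ controls. Untreated it was 1058 and 1097 TPM in labelled knockouts and 875 and 851 TPM in controls. Aqp9, the next, was at 20.2 and 25.1 TPM in IMQ labelled knockouts and 39.5 and 44.9 TPM in IMQ controls. The ratio of Aqp3 to Aqp9 in TPM was thus 481 and 258 in IMQ labelled knockouts and 48.6 and 56.9 in IMQ controls, and untreated it was 38.1 and 29.2 in labelled knockouts and 27.5 and 16.0 in controls. Aqp3 held 99.7% and 99.5% of the TPM of the 6 measured aquaporins in IMQ labelled knockouts and 96.7% and 98.0% in IMQ controls. Untreated its share was 96.8% and 95.7% in labelled knockouts and 95.5% and 93.1% in controls.

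**Figure D2:**
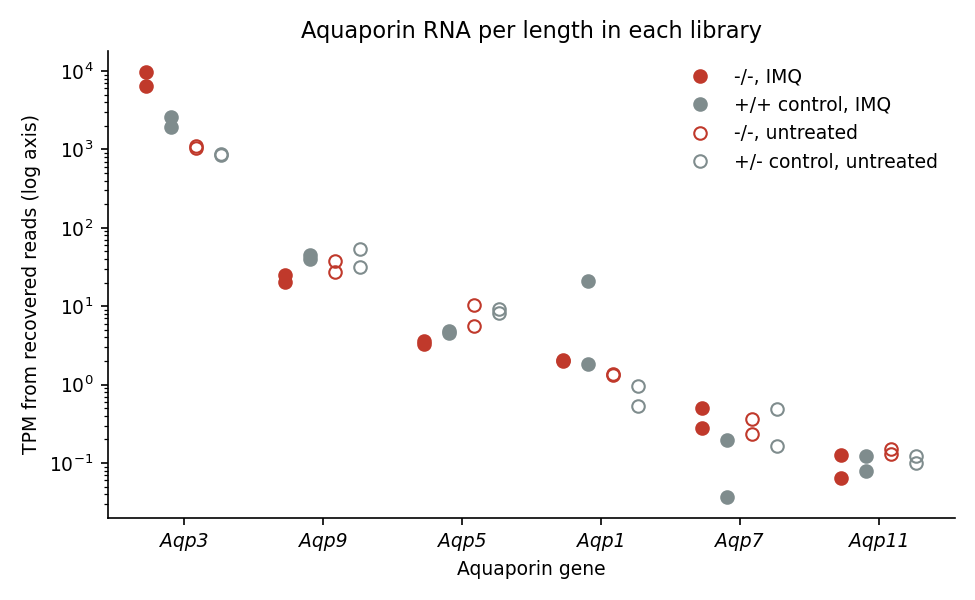
RNA per length of the 6 measured aquaporins in TPM on a log axis, 1 point per library, with labelled Ovol1 -/- libraries left of their controls. Aqp3 lies above every other aquaporin in all 8 libraries, and Aqp9 is at 20.2 and 25.1 TPM in IMQ labelled knockouts against 39.5 and 44.9 TPM in IMQ controls.

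Glycerol-handling genes had log2 fold changes of both signs. All 25 listed genes of glycerol release, phosphorylation and use were tested, and limma called 0 of them in either comparison, with adjusted p from 0.0552 to 0.972 under IMQ and from 0.600 untreated. Under IMQ 15 of 25 were positive with a median log2 fold change of 0.14, against -0.01 over all tested genes. At an unadjusted p under 0.05 in limma, 4 were higher and 6 lower, where 10% of all tested genes were higher and 11.9% lower at that p. The groups did not overlap for 8 higher and 7 lower members, against 26.6% and 26.4% of all tested genes. Untreated, 20 of 25 were positive with a median of 0.26. At an unadjusted p under 0.05, 4 were higher and 0 lower untreated, where 2.79% of tested genes were higher and 1.67% lower. The untreated groups did not overlap for 13 higher and 3 lower members, against 17.4% and 16.4% of all tested genes.

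Gk, which phosphorylates glycerol to glycerol 3-phosphate and whose promoter is printed above, had 8757 and 5554 normalised counts (female, male) in IMQ labelled knockouts, against 1972 and 2865 in IMQ controls. As for Aqp3, the female was the higher labelled knockout and the male the higher control, and the groups did not overlap. The log2 fold change was 1.55 (SE 0.27, limma adjusted p = 0.0639), and with sex as a block the limma adjusted p was 0.0381. Untreated Gk had 1166 and 908 normalised counts in labelled knockouts and 918 and 770 in controls (log2 fold change 0.29, SE 0.27). In log2(CPM + 0.5) Gk stood 3.04 above untreated epidermis under IMQ in labelled knockouts and 1.76 in controls, against 3.12 and 1.50 for Aqp3.

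Acyltransferases and phosphatases of glycerolipid synthesis had values of opposite sign under IMQ. Agpat4, an acyltransferase that makes phosphatidic acid, had 1185 and 1792 normalised counts in IMQ labelled knockouts and 3115 and 3594 in IMQ controls. Its log2 fold change was -1.20 (SE 0.19, limma adjusted p = 0.0552; 0.0200 with sex as a block). Lpin1, a phosphatidic acid phosphatase, had 119 and 161 in IMQ labelled knockouts and 354 and 227 in IMQ controls (log2 fold change -1.03, SE 0.26, limma adjusted p = 0.105). Its paralog Lpin2 had 1769 and 1294 in IMQ labelled knockouts and 868 and 766 in IMQ controls (log2 fold change 0.89, SE 0.25, limma adjusted p = 0.121). Both pairs of groups were apart, in opposite directions, and neither gene passed. With sex as a block limma called 2 of the 25 higher and 2 lower under IMQ, against 0.588% and 1.86% of all tested genes. They were Gk, Agpat4 and, named after their values were seen, Dgat1 and Agpat5. Dgat1, which makes triglyceride from diglyceride, had 1540 and 1744 normalised counts in IMQ labelled knockouts and 814 and 1062 in IMQ controls (log2 fold change 0.82, SE 0.27, limma adjusted p = 0.156; 0.0432 with the block). Agpat5, an acyltransferase of the Agpat4 family, had 1718 and 2278 in IMQ labelled knockouts and 2833 and 4219 in IMQ controls (log2 fold change -0.81, SE 0.25, limma adjusted p = 0.138, or 0.0221 with the block). Agpat2, of the same family, went the other way, with 992 and 745 in IMQ labelled knockouts and 543 and 562 in IMQ controls. Its log2 fold change was 0.64 (SE 0.19, limma adjusted p = 0.129, or 0.113 with the block). Untreated, the largest of the 4 at an unadjusted p under 0.05 was Mgll, the monoglyceride lipase that frees glycerol, with 15335 and 16234 normalised counts in labelled knockouts and 5639 and 10134 in controls. Its log2 fold change was 1.06 (SE 0.34, limma adjusted p = 0.850). The others were Lpin1 at 0.72 (SE 0.26), the phosphoglycolate and glycerol 3-phosphate phosphatase Pgp at 0.68 (SE 0.18) and Agpat2 at 0.47 (SE 0.19). In those same untreated libraries, the 6 sebocyte markers summed to 2534 and 2438 CPM in labelled knockouts and 1217 and 1867 CPM in controls, and all 6 had positive log2 fold changes. Sebocytes make much glycerolipid, and their part in these untreated values was not tested.

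**Figure D3:**
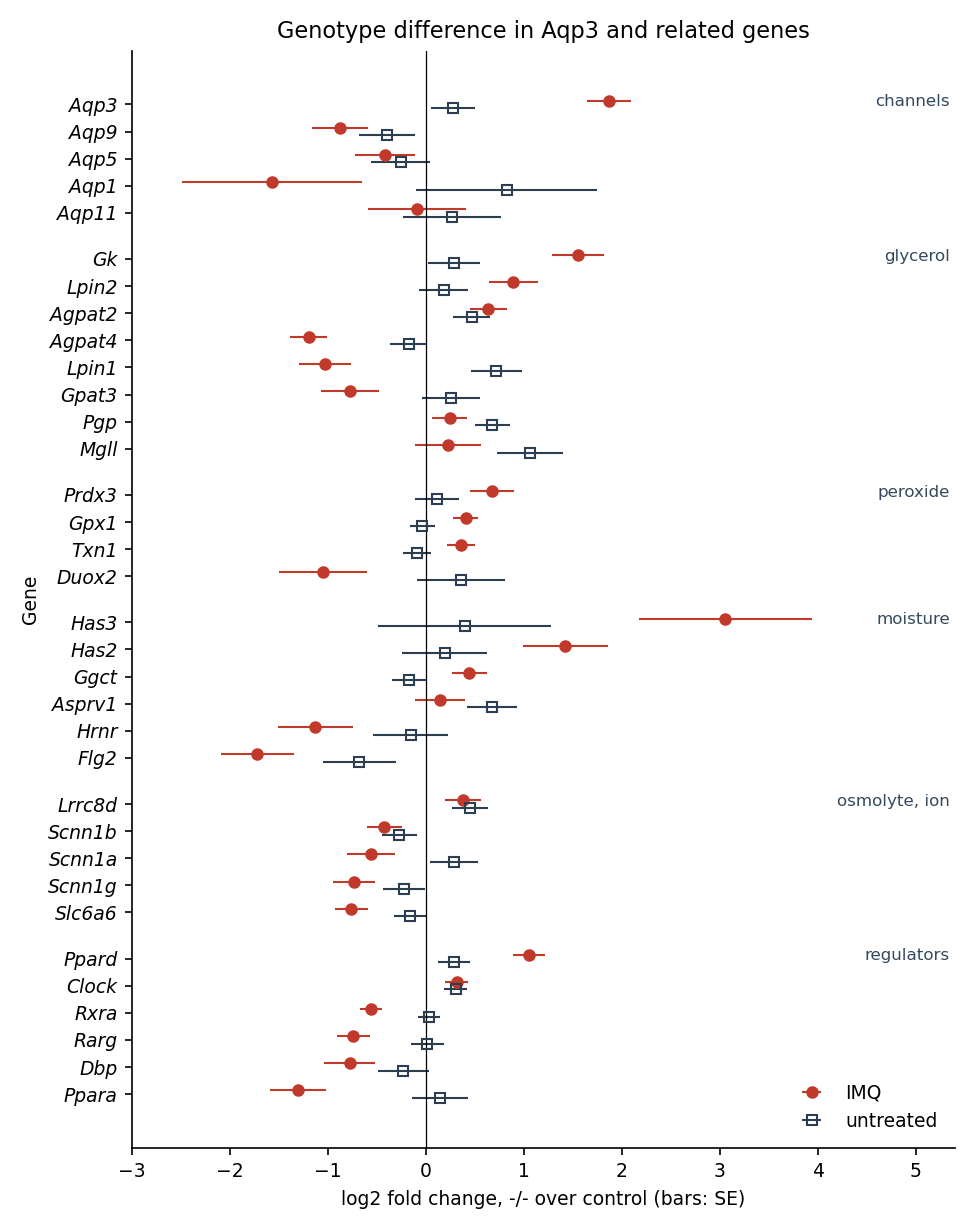
Log2 fold change, labelled Ovol1 -/- over control, of Aqp3, the tested aquaporins and named genes of each list, on the scale of log2(normalised count + 1). Dgat1, Agpat5, Slc12a2, Atp1b3, Nfe2l2 and Foxo3 are not shown. Filled circles are IMQ, open squares untreated and bars are SE. Under IMQ Aqp3 (1.87), Gk (1.55), Has3 (3.06) and Has2 (1.42) lie far right of 0, and Flg2 (-1.72), Aqp1 (-1.57) and Ppara (-1.31) far left.

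Hydrogen peroxide is another small solute that aquaporin 3 carries. Of 24 listed enzymes that make or remove it, 21 were tested and limma called 0, with or without sex as a block, in either comparison. At an unadjusted p under 0.05, 3 of the 21 were higher and 1 lower under IMQ, against 10% and 11.9% of all tested genes, and 0 untreated, against 2.79% and 1.67%. The mitochondrial peroxiredoxin Prdx3 had 1138 and 755 normalised counts in IMQ labelled knockouts and 514 and 655 in IMQ controls (log2 fold change 0.67, SE 0.22, limma adjusted p = 0.156). The glutathione peroxidase Gpx1 was at 0.41 (SE 0.13) and the thioredoxin Txn1 at 0.36 (SE 0.14). Duox2, an oxidase that makes peroxide outside the cell, was at -1.05 (SE 0.45) on 12 to 43 reads a library under IMQ.

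Transporters of osmolytes and ions, which set the gradients that water follows, were all tested, 22 of 22, and limma called 0 with or without the block. Under IMQ 14 of 22 were positive with a median of 0.15, while 2 were higher and 4 lower at an unadjusted p under 0.05, against 10% and 11.9% of all tested genes. The lower ones were led by Slc6a6, the taurine transporter, with 15664 and 16643 normalised counts in IMQ labelled knockouts and 27468 and 27268 in IMQ controls (log2 fold change -0.76, SE 0.17, limma adjusted p = 0.0818). The groups were wide apart and the libraries within each close. Scnn1g and Scnn1b, subunits of the epithelial sodium channel, were at -0.73 (SE 0.22) and -0.43 (SE 0.18). The higher ones, named after their values were seen, were the sodium potassium chloride cotransporter Slc12a2 at 0.36 (SE 0.12) and the sodium pump subunit Atp1b3 at 0.34 (SE 0.11). Untreated, Lrrc8d, a subunit of the volume-regulated anion channel, was the 1 member at an unadjusted p under 0.05, at 0.44 (SE 0.18). Of all tested genes 2.79% were higher and 1.67% lower at that p untreated.

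Genes that hold water in the skin included both large positive and large negative values. Of 18 listed, 17 were tested and limma called 0. Under IMQ 3 of the 17 were higher and 2 lower at an unadjusted p under 0.05, against 10% and 11.9% of all tested genes. Has3, a hyaluronan synthase, had 23064 and 16148 normalised counts in IMQ labelled knockouts and 1667 and 3230 in IMQ controls. The order of the 4 libraries was that of Aqp3 and Gk. Its log2 fold change was 3.06 (SE 0.88, limma adjusted p = 0.128), with a wide error, and the untreated sexes lay far apart, at 5416 and 1527 in labelled knockouts and 5361 and 892 in controls. Has2, the other hyaluronan synthase on the list at that p, had 1469 and 900 in IMQ labelled knockouts and 351 and 524 in IMQ controls (log2 fold change 1.42, SE 0.43, limma adjusted p = 0.136). Flg2, a filaggrin-like protein of the cornified layer, had 7335 and 14091 in IMQ labelled knockouts and 25544 and 44027 in IMQ controls. Its log2 fold change was -1.72 (SE 0.37, limma adjusted p = 0.0818, or 0.0123 with sex as a block, where it was the 1 member called). With that block limma called 1.86% of all tested genes lower and 0.588% higher under IMQ. Hornerin, Hrnr, was at -1.13 (SE 0.38, limma adjusted p = 0.160). Ggct, whose enzyme makes the pyroglutamate of the natural moisturising factor, was at 0.44 (SE 0.18). Untreated, Asprv1, the protease that cleaves profilaggrin, was at 0.67 (SE 0.26).

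Factors that other studies have linked to Aqp3 transcription or to its daily rhythm had values of both signs under IMQ. All 16 were tested; 7 were positive and the median log2 fold change was -0.28 under IMQ, against 9 positive and 0.01 untreated. limma called 0, while 3 of the 16 were higher and 5 lower at an unadjusted p under 0.05 under IMQ, against 10% and 11.9% of all tested genes. Ppard, the nuclear receptor PPAR delta, had 4104 and 2964 normalised counts in IMQ labelled knockouts and 1676 and 1692 in IMQ controls. The groups were apart, with the female again the higher labelled knockout. Its log2 fold change was 1.05 (SE 0.16, limma adjusted p = 0.0517; 0.0336 with sex as a block), and untreated it was 0.29 (SE 0.16). Its paralog Ppara had 24.9 and 29.5 in IMQ labelled knockouts and 87.2 and 53.7 in IMQ controls (log2 fold change -1.31, SE 0.29, limma adjusted p = 0.0818). The retinoid receptors Rarg and Rxra were at -0.74 (SE 0.17) and -0.56 (SE 0.11), with limma adjusted p of 0.0878 and 0.0714. Dbp, a clock output factor, was at -0.78 (SE 0.26) on 49 and 49 reads in IMQ labelled knockouts and 110 and 59 in IMQ controls. Clock itself was at 0.31 (SE 0.12) under IMQ and at 0.30 (SE 0.12) untreated. The others at that p, named after their values were seen, were the oxidative stress factor Nfe2l2 at 0.74 (SE 0.20) and the forkhead factor Foxo3 at -0.48 (SE 0.16).

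The genes beside Aqp3 on chromosome 4 had smaller absolute log2 fold changes than Aqp3, which was chosen with its values known. Among the 5 nearest protein-coding genes on each side, 9 of 10 were tested. Under IMQ their log2 fold changes ran from -0.51 in Ube2r2 to 0.55 in Nol6, with 5 positive, and untreated from -0.17 to 0.05, with 2 positive. limma called 0 of the 9, with or without sex as a block, and the lowest adjusted p under IMQ was 0.186. Without the block, limma called 0.157% of all tested genes higher and 0.281% lower under IMQ. At an unadjusted p under 0.05 in limma, 2 of the 9 passed under IMQ, Nol6 and Nfx1, both higher. Of all tested genes 10% were higher and 11.9% lower at that p. Untreated, 0 of the 9 passed it. Nol6, a nucleolar protein whose end lies 16.2 kb from the start of Aqp3, had 4213 and 3474 normalised counts in IMQ labelled knockouts and 2323 and 2948 in IMQ controls (log2 fold change 0.55, SE 0.21). Nfx1, a transcription factor gene, was at 0.31 (SE 0.11). On the other side the nearest gene is Aqp7, 44.6 kb away, which was the 1 neighbour below the minimum.

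**Figure D4:**
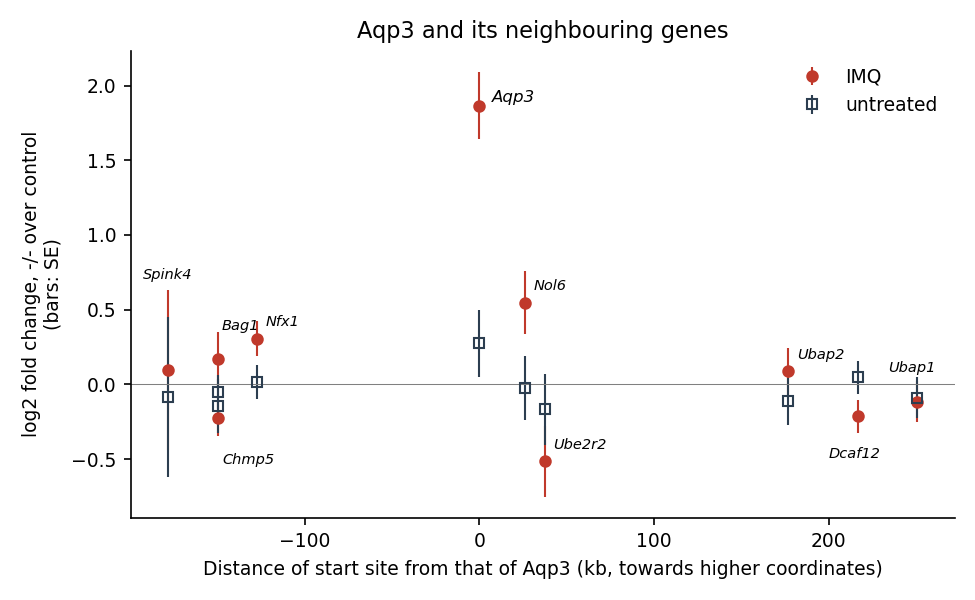
Log2 fold change, labelled Ovol1 -/- over control, of Aqp3 and its 9 tested neighbours against the distance of their start sites in kb; filled circles are IMQ, open squares untreated and bars are SE. Aqp3 lies at 1.87 under IMQ, and the neighbours lie between -0.51 and 0.55.

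The genes with the profile most like that of Aqp3 were sought across the 8 libraries by Pearson's r of log2(CPM + 0.5), among 9809 annotated genes with a mean of at least 5 CPM. They were chosen for this likeness, so they carry no test, and the 8 libraries are 4 groups of 2. A high r was common: 19.5% of these genes had r over 0.9, 7.15% over 0.95 and 0.173% over 0.99. The 10 highest were Pmm2 (r = 0.997), a phosphomannomutase, Uimc1 (0.996), a ubiquitin-binding DNA repair protein, Zdhhc13 (0.995), a palmitoyl transferase, Klc1 (0.994), a kinesin light chain, the laminin receptor subunit Itga7 (0.994), the RNA-binding Rbm26 (0.994), the mitotic Bod1 (0.993), the transcription factor subunit Taf2 (0.992), the sulfate donor transporter Slc35b3 (0.992) and the heparan sulfate sulfotransferase Hs3st1 (0.992). All 10 had the order of Aqp3 among the 4 IMQ libraries, with widely different spans, while several, such as Pmm2 and Hs3st1, did not keep it among the untreated ones. Pmm2 had 77.7 and 70.3 CPM in IMQ labelled knockouts and 45.8 and 51.4 CPM in IMQ controls, and 33.2 to 33.9 CPM in the untreated libraries. Its slope on Aqp3 was 0.35 log2 units per log2 unit. Hs3st1 had 97.7 and 45.2 CPM in IMQ labelled knockouts and 8.03 and 9.78 CPM in IMQ controls, with a slope of 1.52. Gk was number 11 (r = 0.991) with a slope of 0.99, so its log2 level moved nearly one for one with that of Aqp3, and Ppard was number 17 (r = 0.99). The 5 genes most opposite were the deacetylase Hdac8 (r = -0.994), Odf2l (-0.993), the phosphatase Ctdsp2 (-0.993), Bcas3 (-0.992) and Arhgap42 (-0.992). Hdac8 had 3.80 and 4.27 CPM in IMQ labelled knockouts and 7.19 and 6.11 CPM in IMQ controls, and 10.7 to 11.7 CPM untreated.

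**Figure D5:**
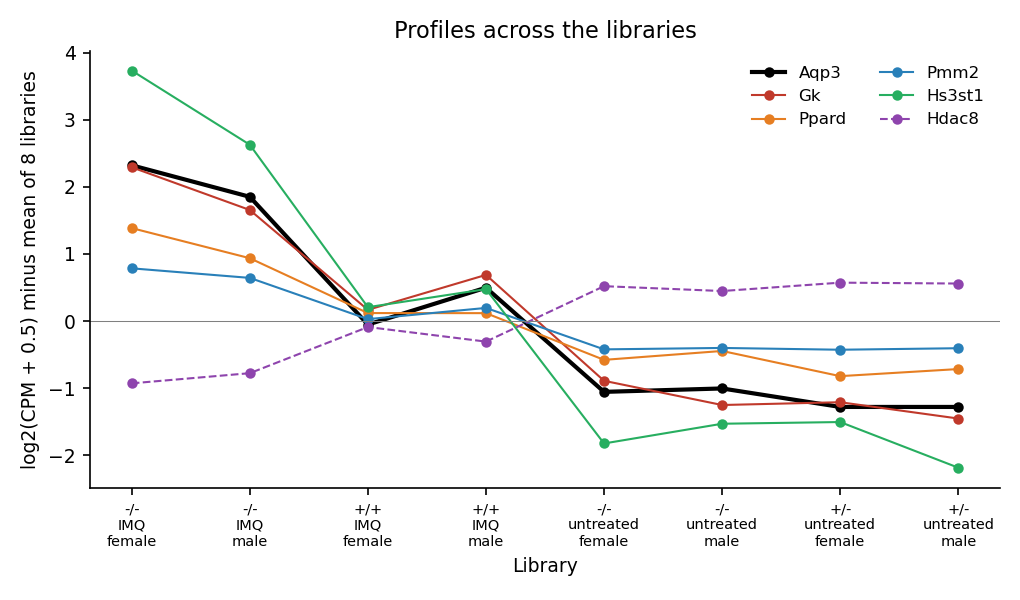
Level of Aqp3, Gk, Ppard, Pmm2, Hs3st1 and Hdac8 in each of the 8 libraries as log2(CPM + 0.5) minus the gene's mean over the libraries. The IMQ labelled knockouts are the highest libraries for all but Hdac8, which runs the other way (r = -0.994), and Gk follows Aqp3 with a slope of 0.99.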

How the data were processed

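The 8 epidermis libraries were stranded libraries of polyadenylated RNA read as 100-bp pairs, per the labels' protocols. Per the submitters' processing notes the tools were Trimmomatic 0.35, STAR 2.5.2a, DESeq2 1.24.0 and R 3.6.1, with mm10. How reads were counted, with which annotation and filter, is not given in the sources used here. What the authors deposited is a signal: whole read counts over a size factor, scaled apart in an untreated and an IMQ table of 16902 genes. In each library every value was a whole multiple of 1 step (tolerance 0.001 reads), and dividing by the step gave recovered reads (28.6 to 43.1 M). CPM used TMM factors over the 8 libraries and an added 0.5. TPM used GENCODE vM21 exon lengths.

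limma 3.58.1 (R 4.3.3; trend, robust) was fitted to log2(value + 1) for the 14614 genes that averaged at least 10 in either table, as 4 group means over 8 libraries. Contrasts were labelled knockout minus control untreated, under IMQ, and their difference. Benjamini-Hochberg adjustment ran over all tested genes, with a threshold of 0.05. limma called 0 genes untreated (652 at an unadjusted p under 0.05; edgeR 0, DESeq2 89) and 64 under IMQ. Replicate numbers follow sex per the labels, and deviations from the group means correlated by sex at 0.145 to 0.463 in the 6 group pairs, so values with sex as a block stand beside those they change.

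Aqp3, the lists (aquaporins, glycerol metabolism, peroxide enzymes, osmolyte and ion transport, moisture retention, reported regulators, cell markers) and the tests were chosen with earlier results of these data known. Named genes were Aqp3, the aquaporins, up to 4 members of each list per contrast with an unadjusted p under 0.05, 5 neighbours on each side, and the 10 most and 5 least like genes without predicted genes and pseudogenes; Dgat1, Agpat5, Slc12a2, Atp1b3, Nfe2l2 and Foxo3 were named after their values were seen, and 1 gene that met the rule is not reported here. Alternatives were pseudocounts 0.5 and 5, other filters and scalings, plain moderation, each table alone, edgeR 4.0.16 and DESeq2 1.42.0 on recovered reads, and each library left out. Only the limma fit without the block was tested on simulated counts, and only for the IMQ contrast. Tables and plots were made in Python 3.11.15 (pandas 2.3.3, numpy 2.4.6, matplotlib 3.10.9).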

Additional observations from a re-analysis of the deposited data

Results flagged for a closer look

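For 8 named genes the labelled knockout stood on one side of its control in both sexes under IMQ and on the other side in both sexes untreated. The difference between the comparisons did not pass in limma for any of them (adjusted p 0.476 to 0.510), and the controls were +/+ under IMQ and +/- untreated. Lpin1, Ppara, Gpat3, Scnn1a, Ggct and Gpx1 met the naming rule by an unadjusted limma p under 0.05 for that difference, which favours such a turn. Of the 14614 tested genes 1472 were at that p for the difference. The share of all tested genes that turned in both sexes was not counted. On the log2 scale Lpin1 had the largest difference, -1.75: its log2 ratio was -1.56 and -0.50 (female, male) under IMQ and 0.94 and 0.49 untreated. The difference was -1.45 in Ppara, -1.03 in the acyltransferase Gpat3, -0.84 in the sodium channel subunit Scnn1a and -0.48 in Foxo3, whose untreated ratios were only 0.00236 and 0.00294. It was 0.62 in Ggct, where the log2 ratio was 0.79 and 0.10 (female, male) under IMQ and -0.26 and -0.09 untreated. It was 0.45 in Txn1 (0.51 and 0.21 under IMQ, -0.13 and -0.06 untreated) and 0.44 in Gpx1 (0.44 and 0.37 under IMQ, -0.02 and -0.06 untreated).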

How the results depend on the processing

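All 75 values of Aqp3 under the 24 alternatives, for genotype and for IMQ against untreated, were positive. Leaving out each library in turn gave a log2 fold change of 1.58 to 2.15 under IMQ, 0.25 to 0.30 untreated and 1.31 to 1.87 for their difference, and other settings gave 1.85 to 1.95, 0.25 to 0.28 and 1.59 to 1.68. On the deposited scale plus 1, where the tables were scaled apart, IMQ minus untreated was 2.81 in labelled knockouts and 1.22 in controls; leaving out a library in CPM gave 2.88 to 3.35 and 1.23 to 1.78.

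Counts of called genes moved far more. Under IMQ, against 64 in the fit reported, they were 0 with plain moderation and with each table alone, 358 with the block, 30 with edgeR, 282 with edgeR and the block, 1242 with DESeq2 and 0 to 299 leaving out a library (0 without any 1 untreated library, 299 and 3 when the male or the female labelled knockout was dropped, 49 and 5 for the male or the female control). Untreated they were 5 with a pseudocount of 5, 8 with each table alone, 8 with sex as a replicate block, 6 with edgeR and the block, 89 with DESeq2 and 0 to 2 leaving out a library. For the difference DESeq2 called 99 and 0 passed in limma when any 1 library was left out. The cause was not tested.

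Of 1104 values of named genes, 1063 kept direction and side of the threshold, 33 passed it and 8 turned direction. Leaving out a library gave -3.25 to 0.10 in Aqp1, -0.47 to 0.28 in Aqp11, -0.0766 to 0.41 in Bag1 and -0.30 to 0.48 in Spink4 under IMQ, and -0.70 to 0.19 in Aqp5 untreated. Aqp1 turned without the female control, Aqp11 without either male, Bag1 and Spink4 without the female control, Spink4 also without the female labelled knockout, and Aqp5 without the female labelled knockout. Aqp11 was also at 0.11 with quantile scaling. Aqp7 and Aqp11 had at most 18 and 15 reads a library, so their values carry a large counting error.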
